A study of Homo sapiens with 4 samples.

Results

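The BCL2 family decides whether a cell under stress opens its outer mitochondrial membrane. Effector proteins form pores that release cytochrome c, pro-survival proteins bind and restrain the effectors, and BH3-only proteins sense stress and either block the pro-survival proteins or switch the effectors on. Ovarian cancer cells are known to lean on the pro-survival proteins BCL-xL and MCL1. The 10 family genes described here were chosen by name, not by a threshold on their values, and all 10 were found among the 56655 gene symbols of the count tables. They were 4 pro-survival genes (BCL2, BCL2L1, MCL1 and BCL2A1), 2 effector genes (BAX and BAK1) and 4 BH3-only genes (BBC3, PMAIP1, BCL2L11 and BID).

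Poly(A) RNA was sequenced from OVCAR5, an established human ovarian cancer cell line labelled as high grade serous and derived from ascites. Cells were stably transduced with a lentiviral nontargeting hairpin (shCtrl, n = 2 libraries) or with a hairpin against the forkhead transcription factor gene FOXK2 (shFOXK2, n = 2 libraries), and both groups were kept under puromycin. The shFOXK2 group carried 1 hairpin sequence in 1 cell line, and its libraries are described as biological duplicates. Whether these came from separate transductions is not stated, so p-values measure only the spread between these libraries. Libraries held between 14284005 and 21950873 counts, and 3 counts corresponded to between 0.134 and 0.21 CPM, where CPM is the count scaled to a common library size (trimmed mean of M-values, TMM). Adjusted p-values come from the edgeR quasi-likelihood test and are corrected over all genes tested, with a threshold of 0.05.

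FOXK2, the targeted gene, stood at 80.5 and 93.4 CPM in shCtrl and at 76.3 and 59.5 CPM in shFOXK2. Neither shFOXK2 library reached the lower shCtrl value, but the log2 fold change of −0.36 (SE 0.25) did not pass the threshold (edgeR adjusted p-value 0.257). With smooth offsets on the base composition of transcripts, the FOXK2 value was −0.06 on GC content (adjusted p-value 0.78) and −0.03 on A content (0.905). These offsets shifted the median of all tested genes by 0.13 and 0.17, and relative to the shifts FOXK2 stood at −0.19 and −0.20. The transcript of FOXK2 itself thus did not separate the groups past the threshold in these libraries. The authors reported lower FOXK2 by qRT-PCR and Western blot in OVCAR5 cells carrying hairpins against it. The 6 epithelial markers summed to between 4075 and 5444 CPM in shCtrl and between 4082 and 5298 CPM in shFOXK2, although CDH1 (E-cadherin) stood at 20.6 and 16.2 CPM in shCtrl and 0.914 and 1.32 CPM in shFOXK2. The 5 ovarian serous markers summed to 32.3 to 37.0 CPM in shCtrl and 18.6 to 19.3 CPM in shFOXK2. Among them PAX8 ranged from 8.9 to 20.9 CPM over the 4 libraries, whereas WT1 was at most 0.0897 CPM and SOX17 had counts in 1 library only. MUC16 stood at 17.8 and 9.03 CPM in shCtrl and at 0 and 0.44 CPM in shFOXK2. MECOM went the other way, at 3.36 and 2.305 CPM in shCtrl and 7.66 and 9.72 CPM in shFOXK2. Of 5 gastrointestinal markers CDX2 reached 13.3 CPM in shCtrl and CDX1 had 0 counts in all libraries. LGALS4 stood at 0.13 and 0.06 CPM in shCtrl and at 1.055 and 0.879 CPM in shFOXK2. Of 5 leukocyte markers only CD14 reached 1 CPM, and their sum was 17.4 to 22.3 CPM in shCtrl and 9.14 to 9.34 CPM in shFOXK2. PTPRC, which defines leukocytes, had 0 counts in both shCtrl libraries and in 1 shFOXK2 library. The 4 endothelial markers summed to 7.72 to 10.6 CPM in shCtrl and 0.633 to 2.03 CPM in shFOXK2, with PECAM1 and CDH5 alone reaching 1 CPM, CDH5 at 0 counts in both shFOXK2 libraries and KDR at 0 in 3 of 4 libraries. The 6 fibroblast markers summed to 13.7 to 14.9 CPM in shCtrl and 13.2 to 16.4 CPM in shFOXK2, almost all from COL1A1. The part of the moving lists in the results below was not tested.

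Promoter windows give the sequence context of the members, and 3 of them are shown because they hold the contrast of the results: BCL2L11 and BBC3, which fell, and BAX, whose value was higher in shFOXK2. The windows are the 250 bases before a RefSeq transcription start (GRCh38.p14), and they were matched for 9 of the 10 members, not MCL1. Capitals mark the FOXK2 binding motif TGTTTAC and the GC box GGGCGG on either strand, which do not overlap in these windows.
BCL2L11, chr2:111120664-111120913, plus strand: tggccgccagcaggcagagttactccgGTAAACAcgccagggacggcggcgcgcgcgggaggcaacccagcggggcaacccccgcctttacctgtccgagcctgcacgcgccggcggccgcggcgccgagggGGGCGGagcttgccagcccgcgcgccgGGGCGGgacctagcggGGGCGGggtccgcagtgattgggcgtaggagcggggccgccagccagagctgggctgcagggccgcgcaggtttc
BBC3, chr19:47232668-47232917, minus strand: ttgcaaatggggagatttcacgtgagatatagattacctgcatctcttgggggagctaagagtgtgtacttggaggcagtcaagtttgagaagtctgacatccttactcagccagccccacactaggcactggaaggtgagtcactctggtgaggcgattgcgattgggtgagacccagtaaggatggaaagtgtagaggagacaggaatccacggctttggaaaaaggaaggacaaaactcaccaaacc
BAX, chr19:48954625-48954874, plus strand: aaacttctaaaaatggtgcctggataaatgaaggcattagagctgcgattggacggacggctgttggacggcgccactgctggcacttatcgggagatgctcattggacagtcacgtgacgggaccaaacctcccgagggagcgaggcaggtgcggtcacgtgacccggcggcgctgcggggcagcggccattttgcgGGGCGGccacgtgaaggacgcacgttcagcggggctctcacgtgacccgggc
The BCL2L11 window was 76.8% GC and held the FOXK2 motif once, on the opposite strand and beginning 223 bases before the start, together with 3 GC boxes. It was the only window of the 9 members with that motif, which occurred in 2.98% of 35116 promoter windows of the same length. The BBC3 window was 49.2% GC and held neither motif, and the BAX window was 62.8% GC and held 1 GC box, against a median of 58% GC over all windows. GC boxes occurred in at least 1 window of 5 of the 9 members and in 42.6% of all windows. An NF-kB site, which can overlap a GC box, was found among the members in the PMAIP1 window only (5.67% of all windows), and the C/EBP-ATF composite element TGATGNAAT in no window of the 9 members (0.888% of all windows). A match describes letters, not binding, and promoters beyond these windows were not searched.

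In shFOXK2 cells 3 of 4 BH3-only genes and 1 of 2 effector genes fell, whereas none of the 3 tested pro-survival members passed the test. Of the 10 members 9 passed the filter on low counts, and 4 of those 9 had an adjusted p-value under 0.05, all of them lower in shFOXK2: BBC3, BCL2L11, BID and BAK1. Over all 16417 genes tested, 48.4% passed in either direction, 22.7% lower and 25.7% higher. The share of members called, 4 of 9, was thus near the background share, and the direction is given as a count only. All 4 had a log2 fold change below −1 as well, which held for 16.7% of all tested genes. By order alone, both shFOXK2 libraries lay under both shCtrl libraries for 6 of the 9 tested members and above them for 2, while over all tested genes this was so for 36.2% and 39.2%, together 75.4%. The median log2 fold change of the 9 tested members was −0.53, beside 0.04 over all tested genes. In bulk RNA, fewer cells with a transcript and less transcript per cell cannot be told apart.

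**Figure D1:**
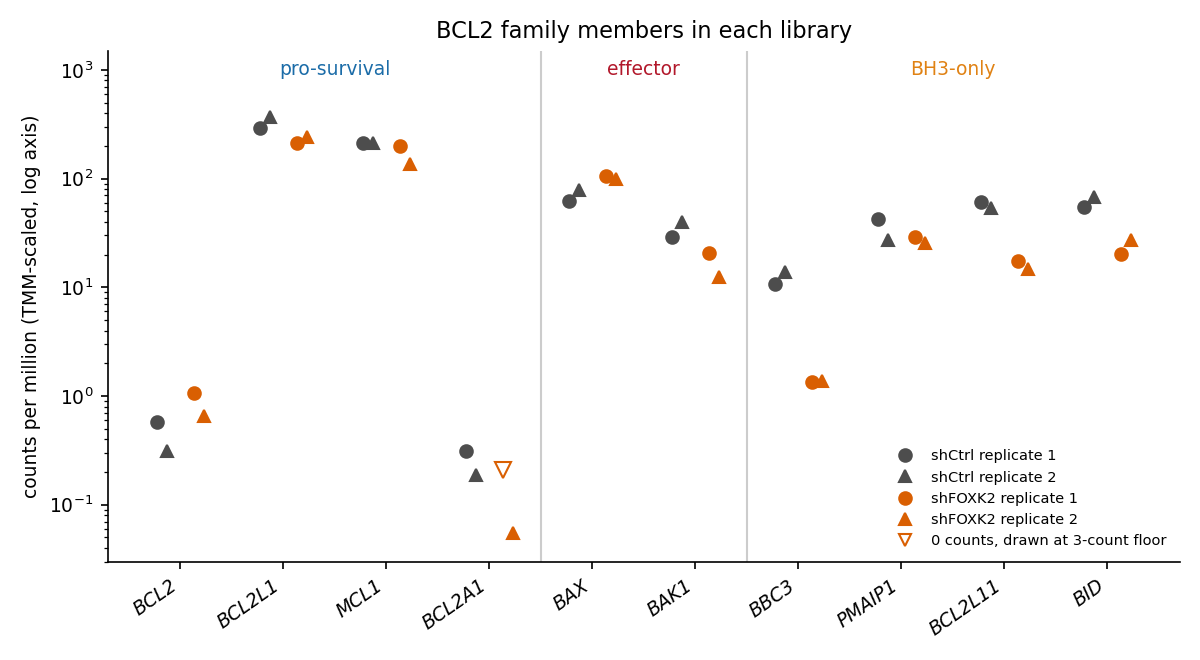
Level of each BCL2 family member in each of the 4 libraries, in TMM-scaled CPM on a log axis, with 1 symbol per library and the open triangle marking 0 counts drawn at the 3-count floor. Both shFOXK2 libraries lie below both shCtrl libraries for 7 of 10 members and above for BCL2 and BAX, while PMAIP1 overlaps. The 7 include BCL2A1, which did not pass the filter on low counts. Over all tested genes 36.2% lie below and 39.2% above.

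BBC3 fell most among the members. It encodes PUMA, a BH3-only protein that binds all the main pro-survival proteins. BBC3 (ENSG00000105327.18, chromosome 19, 47220822 to 47232766, minus strand) was counted 239 and 223 times in shCtrl libraries, and 19 and 25 times in shFOXK2 libraries. As CPM it stood at 10.7 and 13.9 in shCtrl and at 1.34 and 1.37 in shFOXK2. The groups were far apart and the shFOXK2 libraries were nearly equal. The mean was 12.3 ± 2.25 CPM in shCtrl and 1.35 ± 0.0267 CPM in shFOXK2 (SD, n = 2 each), which is 11% of control. On the log2 scale the change was −3.17 (SE 0.36, edgeR adjusted p-value 2.47e-05).

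BCL2L11 fell next. It encodes BIM, a BH3-only protein that activates BAX and BAK directly and whose gene is a known target of FOXO forkhead factors. BCL2L11 (ENSG00000153094.25, chromosome 2, 111119378 to 111168444, plus strand) stood at 61.5 and 53.2 CPM in shCtrl and at 17.4 and 14.7 CPM in shFOXK2. No shFOXK2 library came near the shCtrl range. The log2 fold change was −1.84 (SE 0.27, edgeR adjusted p-value 0.000122), and the mean fell to 28% of control. The annotated long noncoding gene MIR4435-2HG lies across BCL2L11 on the opposite strand. It moved the other way in counts, from 743 and 671 in shCtrl to 921 and 1469 in shFOXK2, and since the strand setting of the counting is not given, reads of the pair cannot be told apart where they overlap.

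BID fell as well. It is the BH3-only protein that caspase-8 cleaves, which links death receptors to mitochondria. BID (ENSG00000015475.19, chromosome 22, 17734138 to 17774770, minus strand) stood at 54.3 and 68.0 CPM in shCtrl and at 20.4 and 27.2 CPM in shFOXK2. The lowest shCtrl library was well above the highest shFOXK2 library. Its log2 fold change was −1.36 (SE 0.27, edgeR adjusted p-value 0.00117), and the mean was 38.9% of control.

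PMAIP1 was the BH3-only member that did not pass the test. It encodes NOXA, which binds chiefly MCL1 and BCL2A1. PMAIP1 (ENSG00000141682.12, chromosome 18, 59899996 to 59904305, plus strand) stood at 42.5 and 27.1 CPM in shCtrl and at 29.2 and 25.4 CPM in shFOXK2. The shCtrl libraries lay on both sides of shFOXK2 replicate 1, so the groups overlapped. The log2 fold change was −0.35 (SE 0.28, edgeR adjusted p-value 0.323). Under smooth offsets on transcript base composition PMAIP1 passed, with a log2 fold change of −1.20 on GC content (adjusted p-value 0.00132) and of −0.61 on A content (adjusted p-value 0.0274). Those offsets shifted the median of all tested genes by 0.13 and 0.17, and relative to these shifts the values were −1.33 and −0.78. Without shCtrl replicate 1 the log2 fold change was −0.03, and without shCtrl replicate 2 it was −0.71.

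The 2 effectors went opposite ways in value. BAK1 encodes BAK, a pore-forming effector that resides in the outer mitochondrial membrane. BAK1 (ENSG00000030110.14, chromosome 6, 33572547 to 33580293, minus strand) stood at 29.0 and 39.6 CPM in shCtrl and at 20.8 and 12.5 CPM in shFOXK2. All shFOXK2 values were below all shCtrl values, with a log2 fold change of −1.04 (SE 0.31, edgeR adjusted p-value 0.0132). This call rested on shFOXK2 replicate 2, since without that library the change was −0.75 on the log2 scale (edgeR adjusted p-value 0.117). BAX encodes the effector that moves from the cytosol to mitochondria on activation. BAX (ENSG00000087088.21, chromosome 19, 48954815 to 48961798, plus strand) stood at 62.1 and 77.9 CPM in shCtrl and at 106.6 and 99.7 CPM in shFOXK2. Both shFOXK2 libraries were above both shCtrl libraries, yet the log2 fold change of 0.56 (SE 0.24) did not pass the threshold (edgeR adjusted p-value 0.0724). With the GC offset it was 0.89 (adjusted p-value 0.0024) and with the A-content offset 0.91 (adjusted p-value 0.00224), which is 0.76 and 0.74 relative to the shift of all genes, and with library size alone it was 0.60 (adjusted p-value 0.0456). BAX and BBC3 lie 1.72 megabases apart on chromosome 19.

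Among the 4 pro-survival members BCL2L1 and MCL1 carried nearly all transcript, and neither passed the test. Other pro-survival genes of the family are described below. BCL2L1 encodes BCL-xL and, by alternative splicing, the short pro-apoptotic BCL-xS, which gene counts do not separate. BCL2L1 (ENSG00000171552.14, chromosome 20, 31664452 to 31723989, minus strand) stood at 292.5 and 370.6 CPM in shCtrl and at 214.6 and 243.1 CPM in shFOXK2. Both shFOXK2 libraries were lower, with a log2 fold change of −0.53 (SE 0.23) and an edgeR adjusted p-value of 0.0751. Without a filter on low counts it passed at −0.64 (adjusted p-value 0.0331), and without shCtrl replicate 1 it passed at −0.73 (adjusted p-value 0.0277). With the GC offset it was −0.22 (adjusted p-value 0.324) and with the A-content offset −0.18 (0.439). Relative to the shift of all genes it was −0.35 under both offsets. The antisense gene ABALON lies inside BCL2L1, at 149 and 124 counts in shCtrl and 53 and 125 counts in shFOXK2, against 3053 to 6525 counts for BCL2L1 itself.

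MCL1 encodes a pro-survival protein with a very short half-life that NOXA and BIM neutralize. MCL1 (ENSG00000143384.14, chromosome 1, 150560895 to 150579738, minus strand) stood at 211.3 and 213.0 CPM in shCtrl and at 197.8 and 137.3 CPM in shFOXK2. The shCtrl libraries were nearly equal and shFOXK2 replicate 2 was the low one. The log2 fold change was −0.34 (SE 0.25, edgeR adjusted p-value 0.269), and it was −0.13 without shFOXK2 replicate 2.

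BCL2 and BCL2A1 were near the limit of detection. BCL2, the founding pro-survival gene of the family (ENSG00000171791.14, chromosome 18, 63123346 to 63320128, minus strand), was seen with 13 and 5 counts in shCtrl libraries, and with 15 and 12 in shFOXK2 libraries. It stood at 0.583 and 0.311 CPM in shCtrl and at 1.05 and 0.659 CPM in shFOXK2. The shFOXK2 libraries were both higher, but the log2 fold change of 0.86 (SE 0.53) had an edgeR adjusted p-value of 0.20. The pooled ratio of shCtrl over shFOXK2 was 0.564, with an exact 95% interval from 0.293 to 1.06 that covers counting error only. BCL2A1 encodes A1/BFL-1, a pro-survival protein known as a target of NF-kB. BCL2A1 (ENSG00000140379.9, chromosome 15, 79960892 to 79971196, minus strand) was seen with 7 and 3 counts in shCtrl libraries, and with 0 and 1 in shFOXK2 libraries, and it was the member that did not pass the filter. Its pooled ratio of shCtrl over shFOXK2 was 8.46 with an exact 95% interval from 1.2 to 367, so its size was not measurable at this depth.

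The order of levels was compared per length, as CPM per kilobase of the canonical transcript. In shCtrl the highest levels were those of BCL2L1 (129 ± 21.5), BAX (88.0 ± 14.0) and MCL1 (53.7 ± 0.309; SD, n = 2 each). BID followed at 28.1 ± 4.45, PMAIP1 at 18.3 ± 5.75, BAK1 at 15.8 ± 3.42, BCL2L11 at 11.2 ± 1.14 and BBC3 at 6.66 ± 1.22 CPM per kilobase. PMAIP1 and BAK1 were neighbours whose libraries overlapped. BCL2A1 and BCL2 came last, at 0.321 ± 0.115 and 0.065 ± 0.0279 CPM per kilobase. In shFOXK2 BAX stood first at 129.7 ± 6.22, above BCL2L1 at 88.9 ± 7.83 and MCL1 at 42.4 ± 10.8. PMAIP1 was at 14.4 ± 1.41 CPM per kilobase, ahead of BID at 10.9 ± 2.23 and BAK1 at 7.68 ± 2.7, and the libraries of BID and BAK1 overlapped. BCL2L11 at 3.15 ± 0.384 and BBC3 at 0.734 ± 0.0144 CPM per kilobase were lower still. By the means on this length, BAX and BCL2L1 changed places. With the longest annotated transcript of each gene as the length, the ranks of the group means stayed as they were, but the pair was no longer separated in shFOXK2, where BAX stood at 78.5 and 73.4 CPM per kilobase and BCL2L1 at 65.9 and 74.7. In shFOXK2 replicate 2 the order of the pair was then reversed.

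To contrast the classes, levels per kilobase were summed within each class in every library. The pro-survival sum was 168 and 198 CPM per kilobase in shCtrl and 134 and 129 in shFOXK2. The effector sum was 91.5 and 116 CPM per kilobase in shCtrl and 144 and 131 in shFOXK2. For BH3-only genes the sum was 65.2 and 63.5 CPM per kilobase in shCtrl and 28.9 and 29.5 in shFOXK2. The groups did not overlap for any class, which taken gene by gene also held for 75.4% of all tested genes. The mean sums of the members differed by −0.48 (pro-survival), 0.40 (effector) and −1.14 (BH3-only) on the log2 scale. Since 2 against 2 libraries cannot give a 2-sided exact permutation p-value below 0.333, no test was made of these sums. As a share of all 10 members, pro-survival transcript made up 52.1% ± 0.544 in shCtrl and 44.1% ± 0.695 in shFOXK2, effector transcript 29.5% ± 1.80 and 46.1% ± 1.22, and BH3-only transcript 18.5% ± 2.34 and 9.80% ± 0.526 (SD, n = 2 each). BAX was the bulk of the effector sum, at 84.8% ± 0.748 in shCtrl and 94.5% ± 1.60 in shFOXK2. PMAIP1 took 28.4% ± 8.39 of the BH3-only sum in shCtrl and 49.3% ± 5.59 in shFOXK2. All these shares depend on the transcript length used. With the longest annotated transcripts, means in shFOXK2 were 70.3 (BCL2L1), 36.8 (MCL1), 76.0 (BAX) and 7.5 (BAK1) CPM per kilobase. Among the members, by that length, pro-survival transcript exceeded effector transcript in shFOXK2 as well as in shCtrl. All sums cover the 10 members only, and the other family genes described below were not summed. Of these, mean CPM in shCtrl and shFOXK2 went against the class sum for BCL2L12 (36.75 and 81.1) and BOK (110.9 and 56.5), among others. It went with the class sum for BCL2L2 (45.3 and 35.9) and BAD (35.8 and 25.0), among others. Sums over the wider classes could therefore differ.

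**Figure D2:**
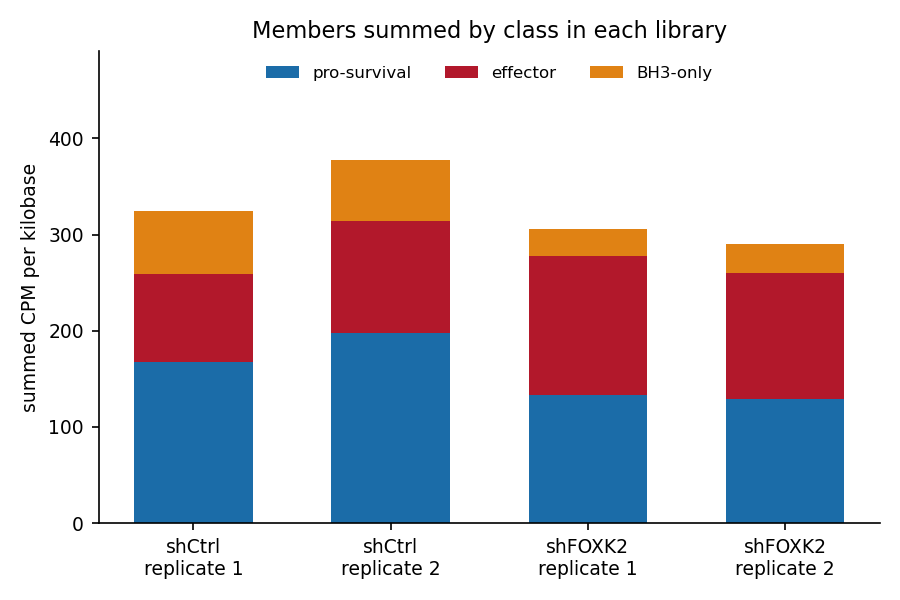
Stacked bars of CPM per kilobase summed over pro-survival, effector and BH3-only members in each library, from 0. The BH3-only part is about 64 CPM per kilobase in shCtrl and 29 in shFOXK2, and the effector part is larger in both shFOXK2 libraries than in either shCtrl library.

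Ratios within a library need no scaling between libraries, so each of the 2 abundant pro-survival members was set against each of the 6 pro-apoptotic members. Of 12 ratios 8 were higher in both shFOXK2 libraries than in both shCtrl libraries, 2 were lower and 2 overlapped. The 8 were the ratios to BAK1, BBC3, BCL2L11 and BID, the 2 lower were those to BAX, and the overlapping ones those to PMAIP1. Among all other tested genes 20.0% were lower relative to BCL2L1, and 23.0% lower relative to MCL1, in both shFOXK2 libraries. Higher relative to BCL2L1 were 55.4%, and higher relative to MCL1 48.2%. The 12 ratios share numerators and denominators and are not independent.

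BCL2L1 exceeded BBC3 per kilobase 19.6- and 19.1-fold in shCtrl and 115- and 127-fold in shFOXK2. It exceeded BCL2L11 9.43- and 13.8-fold in shCtrl and 24.4- and 32.8-fold in shFOXK2, and BID 4.55- and 4.61-fold in shCtrl and 8.90- and 7.55-fold in shFOXK2. These 3 ratios were therefore all higher after FOXK2 was targeted. Relative to BAX, BCL2L1 stood at 1.46 and 1.47 in shCtrl and at 0.622 and 0.754 in shFOXK2, the opposite direction. The size of such a ratio depends on the transcript lengths used, while its direction between groups does not. MCL1 exceeded PMAIP1, its selective antagonist, 2.39- and 3.78-fold in shCtrl and 3.26- and 2.60-fold in shFOXK2, values that overlapped. BAX exceeded BAK1 5.83- and 5.37-fold in shCtrl and 14.0- and 21.7-fold in shFOXK2.

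**Figure D3:**
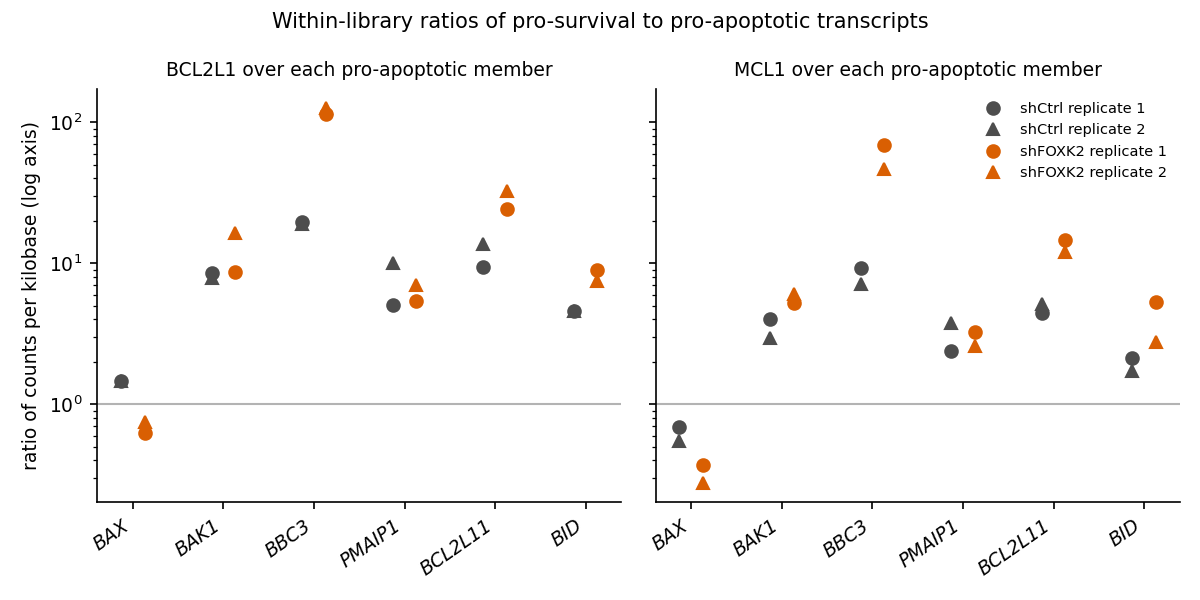
Ratio of BCL2L1 (left) and MCL1 (right) to each pro-apoptotic member in each library, from counts per kilobase on a log axis, with the line at 1 marking equal levels. Ratios to BBC3 move furthest upward in shFOXK2, ratios to BAX are lower there, and ratios to PMAIP1 overlap.

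Other genes of the family were examined from a list of 11, of which 9 passed the filter. Over all 21 family genes 18 were tested, and 8 were lower, 1 was higher and 9 did not pass. The 9 called of 18 were near the background of 48.4% of all tested genes called. Among BH3-only genes BMF, whose protein is held at the cytoskeleton until released, fell most of the whole family. BMF had 278 and 200 counts in shCtrl and 2 and 8 counts in shFOXK2, with a log2 fold change of −5.32 (SE 0.48, edgeR adjusted p-value 3.89e-06). Its pooled ratio of shCtrl over shFOXK2 was 40.4 with an exact 95% interval from 21.8 to 84.9. BAD, which growth factor signalling holds inactive by phosphorylation, had a log2 fold change of −0.52 (edgeR adjusted p-value 0.17), and BIK, a BH3-only protein of the endoplasmic reticulum, had −0.28 (0.448). HRK, at 2 to 8 counts per library, was below the filter. With these, 4 of 7 tested BH3-only genes fell and none rose, beside 48.4% called and 22.7% lower over all tested genes.

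All other tested genes grouped here by name as effector or effector-like fell. BOK, an effector that can act without BAX and BAK, had 2140 and 2022 counts in shCtrl and 941 and 854 counts in shFOXK2, a log2 fold change of −0.97 (SE 0.27, edgeR adjusted p-value 0.00855). BCL2L13 had a log2 fold change of −1.13 (SE 0.25, edgeR adjusted p-value 0.00232). BCL2L15 was counted 135 and 106 times in shCtrl libraries, and 6 and 18 times in shFOXK2 libraries. Its change was −3.11 on the log2 scale (SE 0.44, edgeR adjusted p-value 0.000104). BCL2L14, at 3 to 8 counts per library, was below the filter. Counting BAX and BAK1, 4 of 5 tested effector or effector-like genes fell, beside 48.4% called and 22.7% lower over all tested genes.

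Of the other pro-survival genes only BCL2L12 passed the threshold. BCL2L12, an atypical family member, rose from 713 and 667 counts in shCtrl to 1273 and 1325 in shFOXK2, a log2 fold change of 1.14 (SE 0.26, edgeR adjusted p-value 0.00286). BCL2L2, which encodes BCL-w, had a log2 fold change of −0.34 (edgeR adjusted p-value 0.296), and BCL2L10 had 1.07 (0.166) from 2 to 11 counts per library. Over the 6 tested pro-survival genes 1 rose and 0 fell, beside 48.4% called, 25.7% higher and 22.7% lower over all tested genes. Each of the 5 others had an edgeR adjusted p-value of 0.0751 or more. Whether the classes differ was not tested.

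**Figure D4:**
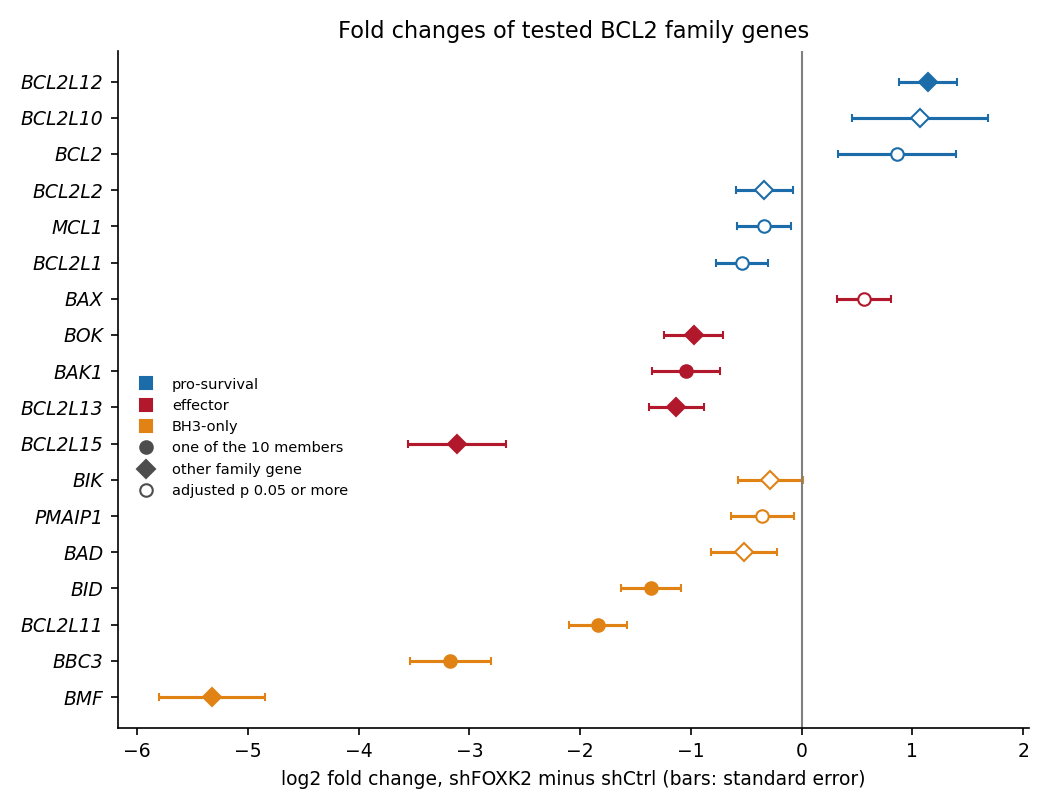
Log2 fold change of each of the 18 tested family genes with its standard error, circles for the 10 members and diamonds for other family genes, filled where the adjusted p-value is under 0.05. Filled points on the left are BH3-only and effector or effector-like genes, and the filled point on the right is BCL2L12.

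The remaining lists hold genes that act around the family. Over all 10 lists, including the 11 further family genes and not the members, 76 of 81 genes were tested, of which 26 fell and 8 rose, with a median log2 fold change of −0.19. That is 34 of 76 called, beside 48.4% of all tested genes. Among genes of mitochondrial execution, 5 of 14 fell and 1 rose. CASP9 and APAF1, which form the apoptosome with cytochrome c, had log2 fold changes of −1.55 (edgeR adjusted p-value 0.000529) and −1.52 (0.00155). DIABLO, which counters the inhibitors of apoptosis, had −1.02 (0.019), and CYCS, cytochrome c itself, rose by 0.58 (0.0496).

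Inhibitors of apoptosis bind caspases, and 5 of 7 were tested. BIRC3, a known NF-kB target, fell with a log2 fold change of −2.45 (edgeR adjusted p-value 0.000237), although its shCtrl libraries differed, at 4536 and 1168 counts. BIRC5, which encodes survivin, rose with 0.86 (0.00966). XIAP had 0.57 (0.121), BIRC6 0.39 (0.474) and BIRC2 0.01 (0.982).

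Death receptor genes feed the pathway that cleaves BID, and 3 of 8 fell. CASP10 had a log2 fold change of −2.57 (edgeR adjusted p-value 1.72e-05), TNFRSF10B, the TRAIL receptor DR5, had −1.50 (0.000214), and the adaptor FADD had −1.14 (0.0109). TNFRSF10A, the TRAIL receptor DR4, rose with 0.82 (0.0207), so that 4 of 8 were called, near the background of 48.4%. CASP8, which cleaves BID, had −0.07 (0.835).

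Transcription factors known to act on members were lower or did not pass. Of 13 tested, 5 fell and 0 rose, beside 48.4% called and 22.7% lower over all tested genes. The largest falls were TP73 at −1.35 (edgeR adjusted p-value 0.00455), NFKB1 at −1.14 (0.00177) and RELA at −1.06 (0.00479). FOXO3 had −0.03 (0.931).

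Genes for turnover of member proteins went both ways. HUWE1, a ubiquitin ligase of MCL1, fell with a log2 fold change of −1.41 (edgeR adjusted p-value 0.000322), as did BTRC with −1.02 (0.00666) and BAG6 with −0.84 (0.00801). FBXW7, another ubiquitin ligase of MCL1, rose with 1.48 (0.00138) and CUL5 with 1.78 (0.00024). The remaining 5 of 10 genes did not pass, beside 48.4% of all tested genes called. Of 5 mitophagy proteins with BH3-like segments 2 fell, BNIP3L with −1.21 (0.022) and BECN1 with −1.11 (0.00281). The other 3 did not pass, beside the same background of 48.4% called.

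Median fold changes differed between genes of different transcript base composition, so composition is given beside the members. Its part in the results was not tested beyond the offsets named here. BBC3 had 15.5% A and 69.7% GC, and the 282 tested genes within 1 percentage point of its A content had a median log2 fold change of −0.06. For BAX (18.4% A) and BAK1 (18.99% A) the median of such genes was −0.38 in both cases. BCL2L11 (25.2% A) had a median of −0.32 beside it, MCL1 (26.2% A) −0.28 and BCL2L1 (20.8% A) −0.31. BID (29.1% A) and PMAIP1 (29.8% A) were on the other side, at 0.11 and 0.25. With the A-content offset BBC3, BCL2L11, BID and BAK1 had log2 fold changes of −2.99, −1.52, −1.51 and −0.69, each still past the threshold. Under the same offset MCL1 stood at −0.05. That offset shifted the median of all tested genes by 0.17, and relative to this shift MCL1 stood at −0.22.

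**Figure D5:**
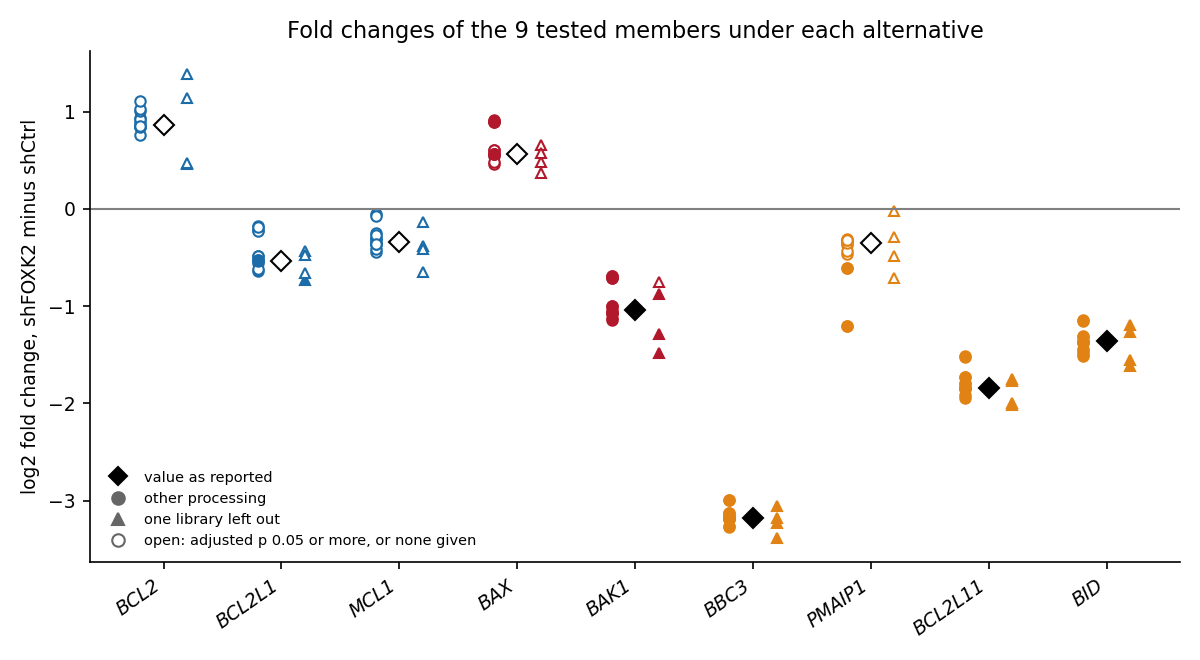
Log2 fold change of the 9 tested members as reported (diamonds), under other processing (circles) and with 1 library left out (triangles), filled where the adjusted p-value is under 0.05. BBC3, BCL2L11 and BID are filled throughout, BAK1 has 1 open triangle, and BAX, BCL2L1 and PMAIP1 cross the threshold in some settings.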

How the data were processed

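RNA-seq libraries from 4 samples, 2 per group, were analysed, with groups and replicate numbers taken from the sample titles. The authors aligned single-end reads to hg38 with STAR 2.5.2 and counted reads per gene with HTSeq, and they deposited raw counts per gene symbol without normalization. The gene annotation and the strand setting are not given in the sources used here, so reads of overlapping genes may be shared or lost.

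Genes were filtered with filterByExpr, scaled with TMM and compared by the 2-sided quasi-likelihood test of edgeR 4.0.16 in R 4.3.3, p-values being adjusted across the 16417 tested genes by the Benjamini-Hochberg method (threshold 0.05). SE values were derived from the log2 fold change and its F statistic, as |log2 fold change|/√F. Alternatives were DESeq2 1.42.0 (test and size factors), the edgeR exact test, library size alone, no filter, at least 10 counts in every library, a replicate block, lowess offsets (span 0.2) on GC or A content of the canonical transcript in GENCODE v44, and leaving out each library. The A-content offset with the block and a block with crossed numbers were added after seeing the data. Composition was matched for 87.7% of tested genes. Intervals and floors cover counting error only, since reads are not independent molecules.

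The members and lists were chosen by gene name, with earlier results of these data known. Genes named are the 10 members, FOXK2, the tested genes of the other family lists, and from each other list up to 3 largest rises and 3 largest falls past the threshold. Named beyond this rule after their values were seen were XIAP, BIRC2, BIRC6, CASP8, FOXO3, MIR4435-2HG, ABALON and the marker genes. Some genes of the lists, and 1 list of 12 genes, are counted in the totals but not reported here.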

Additional observations from a re-analysis of the deposited data

How the results depend on the processing

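Beside the 7940 genes that passed, other processing gave 6008 (a minimum of 10 counts per library) to 9207 (unfiltered), and leaving out 1 library gave 6771 to 7775. The 34 genes called in the wider lists were 31 to 41 and 25 to 38 in these settings. Of the 10 members 4 passed, and 3 to 6 did over all alternatives. For the 9 tested members and FOXK2, 107 values under other processing kept their direction and side of the threshold and 12 became stronger, which concern BAX, BCL2L1 and PMAIP1. With 1 library left out, which treats the lone library as varying like the other group, 38 values kept both, BCL2L1 passed without shCtrl replicate 1, and BAK1 did not pass without shFOXK2 replicate 2 (−0.75). The summed level of pro-survival members differed by −0.48 on the log2 scale and by −0.59 to −0.35 with 1 library left out. For effector members that range was 0.24 to 0.59, and for BH3-only members it was −1.16 to −1.12. Scaled by library total, which acts on all genes of a library alike, the values were −0.436 (pro-survival), 0.445 (effector) and −1.104 (BH3-only). All were slightly higher than with TMM, and for BH3-only genes this was beyond a small between-library SD of 0.0249. No label says what a replicate number shares, and the correlation of same-numbered deviations from group means was −0.113. With the replicate block 7270 genes passed and 4 members, the same count of members as without it, and with the numbers crossed 8350 genes and 6 members passed. Depth limits BCL2 and BCL2A1, with 45 and 11 counts over the 4 libraries.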
